A study of Mus musculus with 6 samples.

Results

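Genes that red cell precursors use to make haem and to build the red cell membrane were examined in mouse femur after focal radiation. The 30 genes were chosen by name: haem synthesis enzymes and mitochondrial carriers, proteins of the membrane skeleton, blood group and other surface proteins, the erythropoietin receptor, and late erythroid genes, with no globin. Of these 30, 29 were found among the 43346 genes of the count table, 27 by symbol and 2 (Epb41 and Epb42) through their gene ID, and Ahsp was not analysed here. All 29 passed the filter on low counts, so none was lost or kept through the group in which it was high. Gene positions are those of the deposited table, for which the submitters' processing notes name the build mm10. Every one of them had counts in all 6 libraries, and the fewest, for Epor in non-radiated library 2, were 1493.

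The mice were C57BL/6, an inbred laboratory strain, 4 months old at treatment. An X-ray beam aimed under imaging gave 24 Gy once, at 6.6 Gy per minute, over 5 mm of the distal metaphysis of the right femur, and the left femur of the same treated mice was the control, so no animal without treatment is in the comparison. The same stretch of bone, cleaned of muscle, was taken from each leg on day 21 (the labels do not speak of marrow), a time chosen because bone loss had been seen at a later one, and gave 3 radiated and 3 non-radiated libraries, made with a stranded mRNA kit. The labels do not say how many mice gave them or that a library number marks a mouse, so a p-value measures the spread between these libraries.

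Erythroid precursors in the marrow respond to erythropoietin through its receptor, stop dividing, and fill with haemoglobin. Haem is made in a chain of enzymes that begins and ends in the mitochondrion, from the erythroid aminolevulinate synthase Alas2 to ferrochelatase, Fech, which inserts the iron. In parallel the cell lays a net of spectrin under its membrane, tied through ankyrin, protein 4.1 and protein 4.2 to the anion exchanger band 3 and to the Rh and Kell blood group complexes. The femoral metaphysis of a mouse is a site of this process throughout life.

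Total counts ran from 34034251 to 48708383 per library. A single row, AY036118, took 32.9% of the counts of non-radiated library 2 and 0.321% to 5.61% of the others, which left less depth for the other genes there. Levels are given as CPM, counts brought to a common library size with edgeR's trimmed mean of M-values (TMM), and so describe a gene's standing against most other genes. Red cell precursors were present in every library, with 7114 to 10476 CPM of the globin Hbb-bs and 46.0 to 61.5 CPM of Klf1, an erythroid transcription factor. Bone was present too: the 7 osteoblast markers together held 3364 to 6843 CPM, with none at 0. The 14 skeletal muscle markers took 0.0187% to 0.0268% of counts in the non-radiated libraries and 0.0871%, 0.295% and 0.0231% in radiated libraries 1, 2 and 3. In whole bone, fewer red cell precursors and less RNA in each of them cannot be told apart.

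The haem and membrane genes differed little between radiated and non-radiated bone. Of the 29 genes, edgeR's quasi-likelihood test called 1, Car1, which fell; over all 18757 genes tested the share called was 7.8% in either direction and 3.24% lower in radiated bone (Benjamini-Hochberg adjusted p under 0.05). The members' share is near that background. DESeq2's Wald test and limma-voom each called 1 of the 29 as well. The other 28 had log2 fold changes from -0.21 to 0.13, with standard errors from 0.06 to 0.11 and adjusted p from 0.218 to 0.986. In linear terms the estimates ran from -13.7% to 9.3%, and no 95% interval among the 28 reached below -26.2% or above 24.5%. These intervals, which are not adjusted for the number of genes, included 0 for 27 of the 28, and that of Rhag lay just below it. A p that misses the threshold does not show that a gene was the same in both legs.

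**Figure D1:**
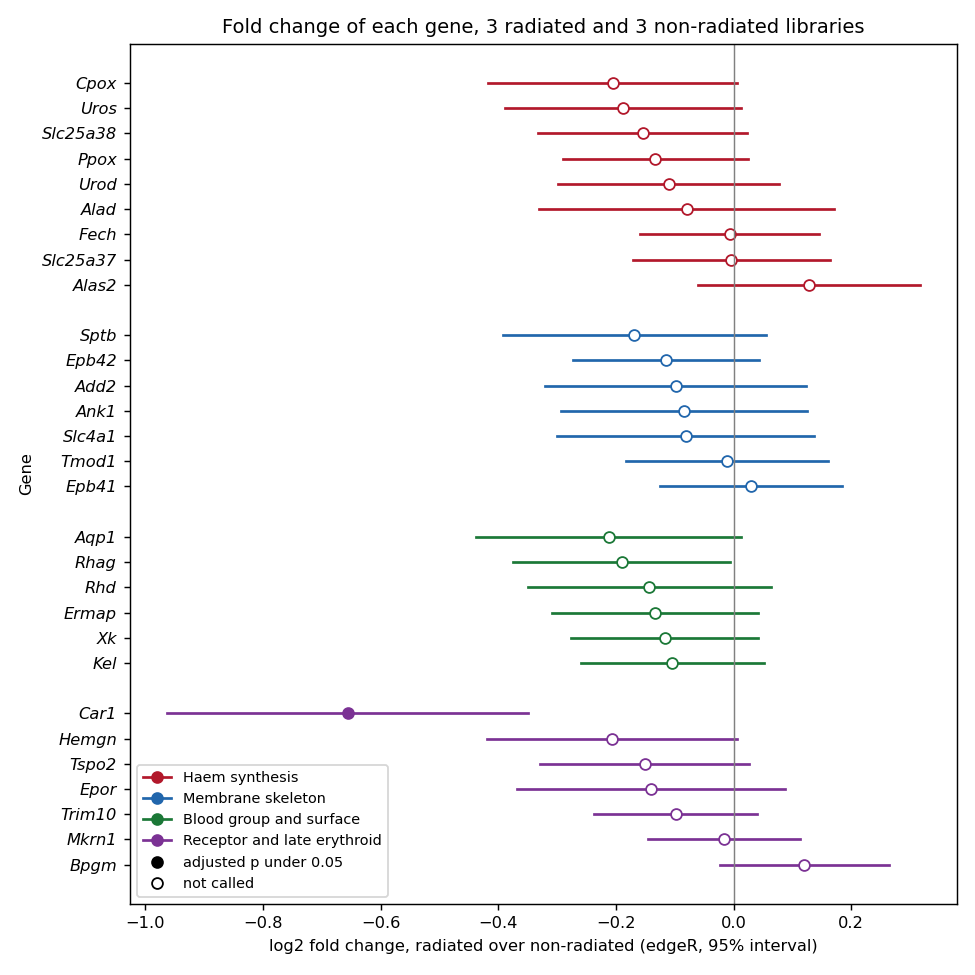
Each row is a gene, grouped by role, with its log2 fold change (radiated over non-radiated, 3 libraries each) as a point and the 95% interval of the edgeR fit as a line. Car1 alone carries a filled point, at -0.66, and the open points of the other 28 genes lie between -0.21 and 0.13.

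Most of the small differences pointed the same way. Of the 29 log2 fold changes 26 were negative and 3 positive, with a median of -0.11, while the median of all genes tested was 0.00; with library totals alone only 2 were negative. The 29 genes together held 15335, 16969 and 15595 CPM in non-radiated libraries 1, 2 and 3, and 14710, 16267 and 14786 CPM in radiated libraries 1, 2 and 3. The group ranges overlapped, with radiated library 2 above non-radiated libraries 1 and 3. Between libraries of the same number the radiated sum was the lower in each of the 3 pairs, while as a share of all counts it was the higher in pair 2 (1.78% against 1.23%), the pair whose non-radiated library held the most AY036118. Library totals alone moved the median of all genes to 0.19 and that of the 29 to 0.09, and 26 of the 29 again lay below the median of all genes. Signs given here are therefore read against most other genes.

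The haem pathway opens with Alas2, which makes the first committed intermediate in red cell precursors. Alas2 (ENSMUSG00000025270, chromosome X, 150547375 to 150570638) was at 1280, 1414 and 1208 CPM in non-radiated and 1437, 1484 and 1343 CPM in radiated libraries 1, 2 and 3. The radiated libraries tended to be higher but the groups overlapped. The log2 fold change was 0.13, with a standard error of 0.08 (adjusted p 0.433 by edgeR) and a 95% interval of -4.08% to 24.5%. Alas2 and Bpgm were the members with the largest positive values. Fech, which completes haem by inserting iron (ENSMUSG00000024588), was at 611, 637 and 562 CPM in non-radiated and 583, 613 and 606 CPM in radiated libraries. The radiated values lay inside the non-radiated range, with a log2 fold change of -0.01 ± 0.07 SE (adjusted p 0.972 by edgeR) and a 95% interval of -10.4% to 10.6%.

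The enzymes between them were all slightly negative and none was called. Alad, which joins aminolevulinate molecules into a pyrrole, had a log2 fold change of -0.08, with 138 to 176 CPM in non-radiated and 130 to 171 CPM in radiated libraries. Uros and Urod, which close the ring and trim its side chains, had -0.19 and -0.11. Cpox and Ppox, the oxidases of the last steps before Fech, had -0.21 and -0.13. Cpox had the lowest value of the pathway, at 311, 357 and 316 CPM in non-radiated and 246, 313 and 293 CPM in radiated libraries, and radiated library 2 reached into the non-radiated range (adjusted p 0.247 by edgeR). Slc25a37, the mitoferrin that brings iron into the mitochondrion, had 0.00 and Slc25a38, the glycine carrier, -0.15. Over these 9 genes the median was -0.11, with 8 negative, 0 called and 0 at an unadjusted p under 0.05 in edgeR, and 0 called by DESeq2 or limma-voom. Of the 29 members 12 overlap another annotated gene: Alas2, Uros, Ppox, Slc25a37, Sptb, Ank1, Epb41, Tmod1, Kel, Xk, Mkrn1 and Car1. Whether strand was used in counting is not given in the sources used here, so the reads of such neighbours may be mixed. Some neighbours lie on the same strand, which a strand setting would not separate. One is RP24-299B14.3, with at most 3434 counts in a library beside 7759 to 15847 for Kel. On the opposite strand, Tstd2 had at most 2040 beside 2248 to 4982 for Tmod1, and Bccip at most 2052 beside 2727 to 5227 for Uros.

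In the membrane skeleton, Slc4a1 encodes band 3, the chloride and bicarbonate exchanger that anchors the net. Slc4a1 (ENSMUSG00000006574, chromosome 11, 102348824 to 102366203) was at 2776, 3215 and 3076 CPM in non-radiated and 2729, 3115 and 2727 CPM in radiated libraries 1, 2 and 3. Radiated library 2 stood above non-radiated libraries 1 and 3, and the log2 fold change was -0.08, with a standard error of 0.10 (adjusted p 0.699 by edgeR). Sptb, the beta chain of spectrin, had -0.17 and its partner Ank1, the ankyrin that ties it to band 3, -0.08. Epb41 and Epb42, proteins 4.1 and 4.2, had 0.03 and -0.11. Epb41 ran from 1463 to 1521 CPM in non-radiated and 1501 to 1557 CPM in radiated libraries. Tmod1, which caps the short actin filaments of the net, had -0.01, and Add2, the adducin that joins spectrin to actin, -0.10. Of these 7 genes 6 were negative, 0 were called and 0 had an unadjusted p under 0.05 in edgeR, and DESeq2 and limma-voom called 0.

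All 6 blood group and surface genes were negative, with a median of -0.14, and 0 were called by edgeR, DESeq2 or limma-voom. Rhag and Rhd encode the Rh-associated glycoprotein and the Rh protein, and had log2 fold changes of -0.19 and -0.14. Rhag was the only one of the 6 at an unadjusted p under 0.05 (adjusted p 0.218 by edgeR), and it was called in 1 of 15 alternatives, without non-radiated library 3 (adjusted p 0.0298). It was at 195, 202 and 163 CPM in non-radiated and 159, 173 and 159 CPM in radiated libraries, so that non-radiated library 3 lay among the radiated ones. Kel, the Kell antigen, and Xk, its linked membrane partner, had -0.10 and -0.12. Ermap, a red cell adhesion protein of the Scianna blood group, had -0.13.

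Aqp1 encodes the water channel that carries the Colton antigen and is also made by endothelium. Aqp1 (ENSMUSG00000004655, chromosome 6, 55336432 to 55348555) was at 662, 763 and 703 CPM in non-radiated and 591, 701 and 543 CPM in radiated libraries 1, 2 and 3. Radiated library 2 was above non-radiated library 1, and the log2 fold change was -0.21, with a standard error of 0.10 (adjusted p 0.259 by edgeR). With the share of muscle counts as a covariate it was called (log2 fold change -0.41, adjusted p 0.0418). The 9 endothelial markers had a median log2 fold change of 0.14 beside it, 4 negative and 5 positive, with a summed level of 297 to 314 CPM in non-radiated and 313 to 338 CPM in radiated libraries, and none was at 0. Their part in the level of Aqp1 was not tested.

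Car1 encodes carbonic anhydrase 1, an abundant cytosolic enzyme of the red cell whose transcript appears early in erythroid commitment. The gene is nevertheless grouped here with the late erythroid genes. It was the only member called, and the share of members called is near that of all genes called lower. Car1 (ENSMUSG00000027556, chromosome 3, 14766216 to 14808368) was at 247, 275 and 190 CPM in non-radiated and 157, 166 and 128 CPM in radiated libraries 1, 2 and 3. Every radiated library lay below every non-radiated one, and in both groups library 2 was the highest and library 3 the lowest. The log2 fold change was -0.66, with a standard error of 0.14 (adjusted p 0.0197 by edgeR), which is -36.5% with a 95% interval from -48.7% to -21.5%. Car1 was the only one of the 29 whose groups did not overlap with radiated lower, which held for 11.5% of all genes tested. With the library number as a block it was again the only member called (adjusted p 0.000452), where 3.39% of all genes were called lower. Its call was kept in 11 of 15 alternatives and lost with library totals alone (log2 fold change -0.44, adjusted p 0.302) and without non-radiated library 1 (-0.63, 0.0712), non-radiated library 2 (-0.55, 0.0595) or radiated library 1 (-0.69, 0.0569). A processed pseudogene, Gm16399, lies within the gene on the same strand and had at most 160 counts in a library.

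**Figure D2:**
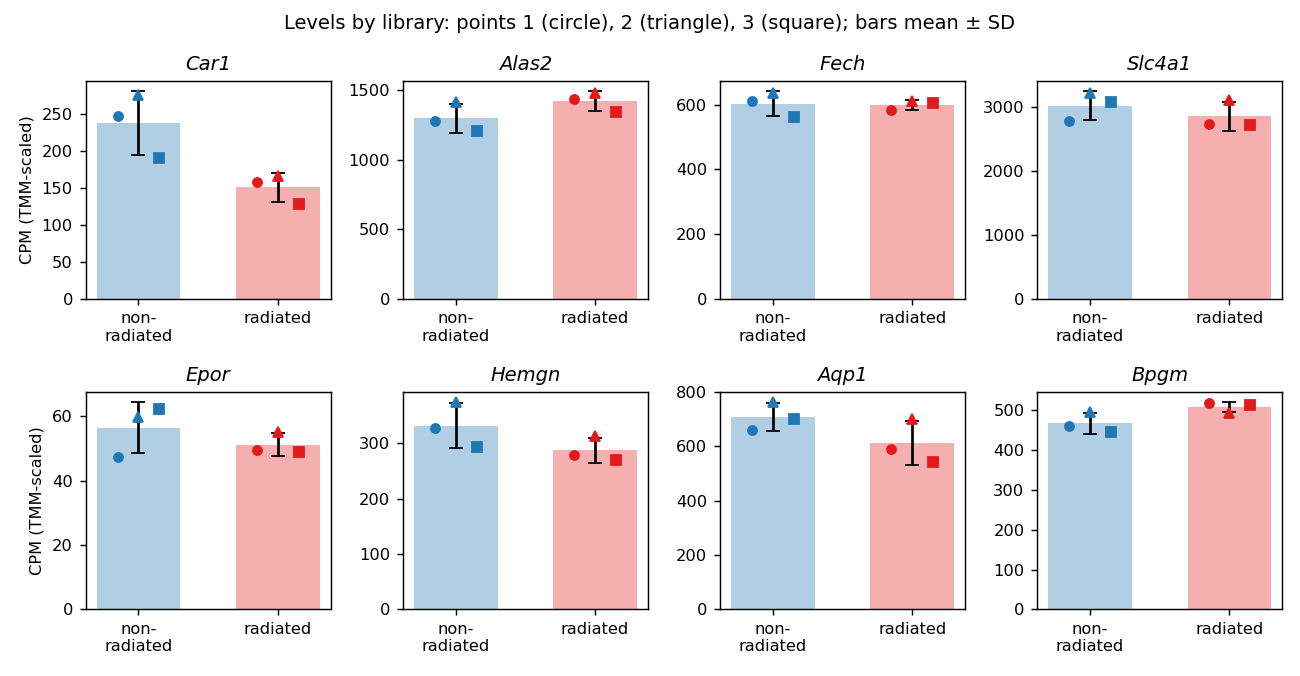
CPM of 8 genes in each library (circle, triangle and square for libraries 1, 2 and 3), with bars for the mean and error bars for the SD of 3 libraries. The groups are apart for Car1, at 190 to 275 against 128 to 166 CPM, and share part of their range in the other 7 panels.

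Epor and the other genes classed with Car1 did not pass the test. Epor, the erythropoietin receptor (ENSMUSG00000006235, chromosome 9, 21958899 to 21963576), was at 47.4, 59.6 and 62.3 CPM in non-radiated and 49.5, 55.1 and 48.9 CPM in radiated libraries 1, 2 and 3. The radiated values all fell inside the non-radiated range (log2 fold change -0.14, SE 0.10, adjusted p 0.481 by edgeR). Hemgn, a nuclear protein of erythroid and progenitor cells (ENSMUSG00000028332, chromosome 4, 46393989 to 46413506), was at 329, 375 and 293 CPM in non-radiated and 279, 313 and 271 CPM in radiated libraries. Radiated library 2 overlapped the non-radiated range, and the log2 fold change was -0.21, with a standard error of 0.09 (adjusted p 0.245 by edgeR).

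Bpgm makes the bisphosphoglycerate that lowers the oxygen affinity of haemoglobin. It was at 460, 496 and 444 CPM in non-radiated and 516, 493 and 512 CPM in radiated libraries, which overlapped through non-radiated library 2 alone (log2 fold change 0.12, edgeR adjusted p 0.323). Tspo2, an erythroid relative of the mitochondrial translocator protein, had -0.15, Trim10, a RING protein of terminal erythroid cells, -0.10, and Mkrn1, a ubiquitin ligase, -0.02. Mkrn1 had the smallest standard error of the 29 log2 fold changes, 0.06, and ran from 628 to 638 CPM in non-radiated and 612 to 635 CPM in radiated libraries. Of the 7 genes in this class 6 were negative, and Car1 was the one called.

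Per kilobase of gene length the 29 genes spanned a wide range of levels. The mean over 6 libraries was highest for Slc4a1, at 601 CPM per kb, followed by Alas2 at 566, Aqp1 at 251, Slc25a37 at 243 and Fech at 208. The lowest were Xk at 14.0, Tmod1 at 21.4, Uros at 26.0 and Epor at 29.4 CPM per kb. Alas2 therefore stood above the enzymes that follow it, of which Cpox was at 96.0, Alad at 82.3, Urod at 80.8, Ppox at 48.0 and Uros at 26.0 CPM per kb.

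The members varied together between libraries of a group. Non-radiated library 2 held the highest CPM of its group for 27 of the 29 genes, against 31.7% of all genes tested, and Epor and Tspo2 were the exceptions. Radiated library 2 was the highest of its group for 27 of the 29 as well, against 32.4% of all genes, with Epb41 and Bpgm as the exceptions. For 25 of the 29 library 2 was the highest in both groups, where the share over all genes was 13.1%. Relative to the mean of the non-radiated libraries, the median over the members was -0.05, 0.09 and -0.05 on the log2 scale for non-radiated libraries 1, 2 and 3. For radiated libraries 1, 2 and 3 it was -0.18, 0.00 and -0.18. The muscle markers had the same order, with library 2 the highest in both groups for 14 of 14, and AY036118 was highest in non-radiated library 2 and lowest in radiated library 2. The part of these in the members' levels was not tested.

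**Figure D3:**
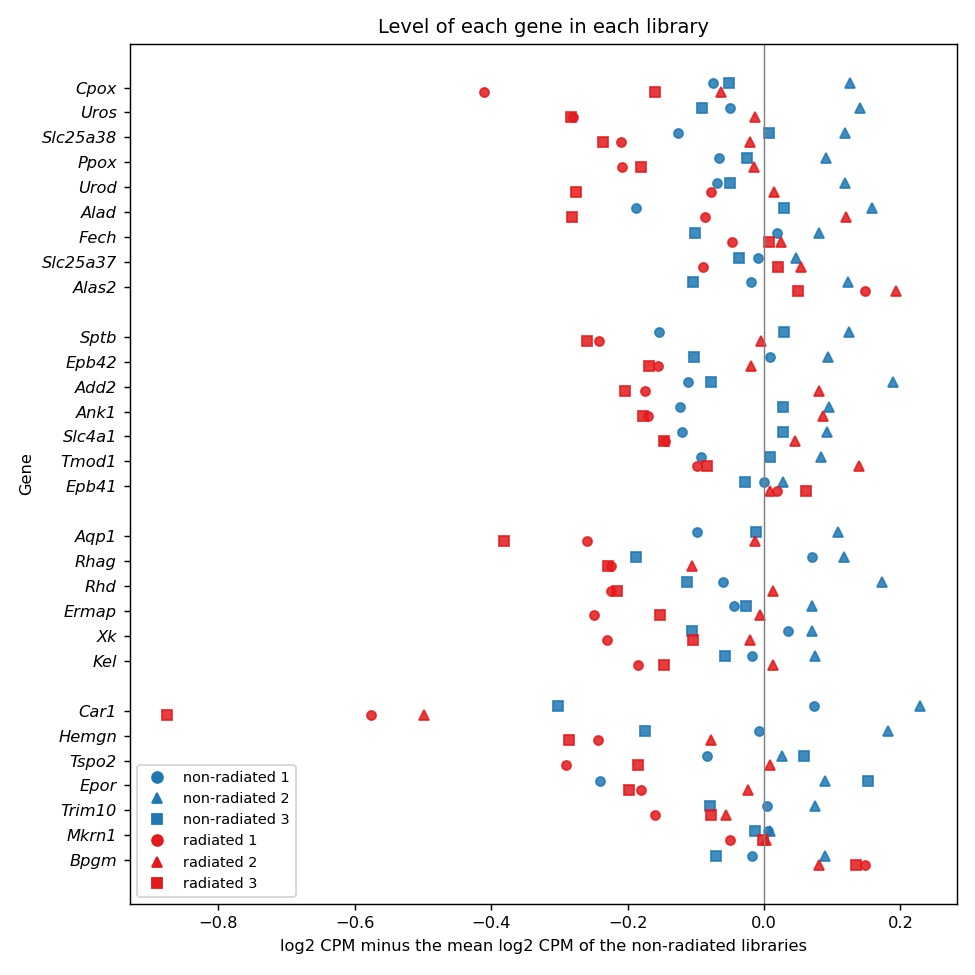
For each gene the log2 CPM of each library is plotted relative to the mean log2 CPM of the 3 non-radiated libraries (blue non-radiated, red radiated; circle, triangle and square for libraries 1, 2 and 3). Triangles sit to the right in 27 of the 29 genes in each group, and only Car1 has all its red points to the left of all its blue ones.

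Across genes, deviations from the group mean correlated positively between libraries of the same number (0.166 to 0.278) and negatively between different numbers (-0.170 to -0.00824), so radiated libraries were also set against the non-radiated library of their number. Each group was centred on its own mean, so positive values at the same number bring negative ones elsewhere, which are no further support for pairing. Within pairs 1, 2 and 3 the median difference over the members was -0.09, -0.10 and -0.11 on the log2 scale, against 0.02, 0.00 and 0.00 over all genes tested. The members were negative in 24, 26 and 21 of 29 cases. In 18 of the 29 the radiated library was lower in all 3 pairs, against 19.6% of all genes tested. Since the members rise and fall together between libraries, these 18 are not separate observations. Among the 18 were Slc4a1, Sptb, Ank1, Epb42, Cpox, Ppox, Urod, Uros, Hemgn, Rhag, Rhd and Kel. Alas2 was the only member higher in all 3 pairs, against 22.3% of all genes tested. With the number as a block in the edgeR fit the 28 genes other than Car1 had adjusted p of at least 0.0815, and Car1 alone passed the adjusted threshold. Differences were alike across the pairs in some of the others, such as Uros with -0.23, -0.15 and -0.19. Ppox had -0.14, -0.11 and -0.16, and Rhd -0.16, -0.16 and -0.10. They were unlike in others, such as Alad with 0.10, -0.04 and -0.31 and Epor with 0.06, -0.11 and -0.35. These examples were picked after the values were seen, and the share of all genes with pairs this alike was not computed.

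**Figure D4:**
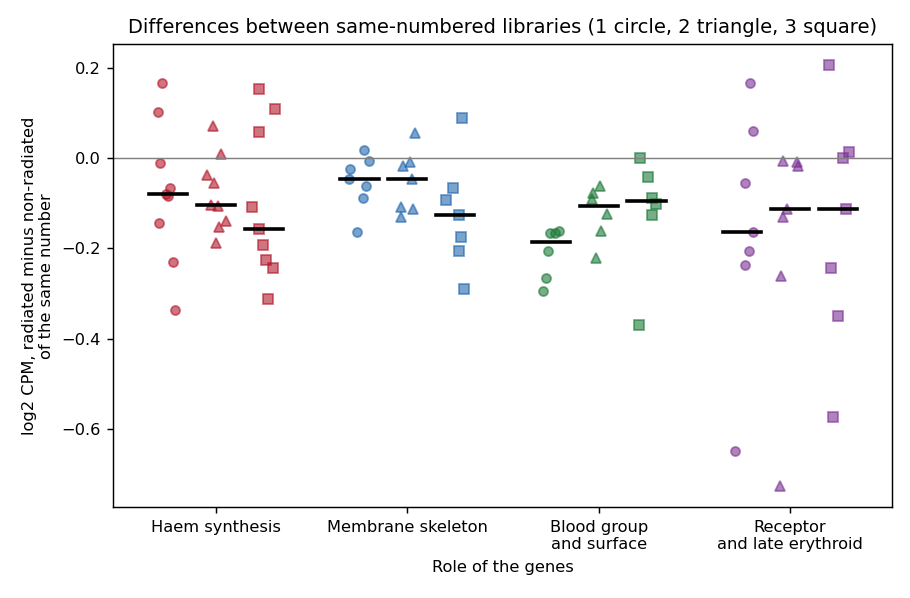
Differences in log2 TMM-scaled CPM, radiated minus non-radiated, between libraries of the same number (circle, triangle and square for numbers 1, 2 and 3), by role of the genes, with black bars for medians. All 12 medians lie below 0, and the lowest points belong to Car1.

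The fit with the share of muscle counts as a covariate gave larger falls. In it the median of the members was -0.22 on the log2 scale, and Car1 and Aqp1 were called. Leaving out radiated library 2, which has the highest muscle share, gave a median of -0.19 with 1 gene called. The median moved to -0.08 when radiated library 1 was left out, and also to -0.08 when non-radiated library 2 was.

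The promoters of the members were also read for short motifs, as a description. RefSeq windows of 300 bases (250 before and 50 after the start, build GRCm38.p6) were matched by symbol to 24 of the 30 genes. Ahsp, Ank1, Car1, Fech, Slc25a37 and Slc4a1 had none, so the shares do not cover Car1, the only member called. The letters AGATAA, read by GATA factors, stood on either strand in a window of 8 of the 24 genes (33.3%), against 12.7% of all 27025 genes with a window. These 8 were Alas2, Cpox, Epb42, Epor, Hemgn, Kel, Rhd and Trim10. CACCC, the core letters of sites for Klf factors, stood in 75% of the 24 genes and in 59.8% of all genes, and CAGNTG, an E-box, in 50% and 54.6%. A match describes letters and does not show that a factor binds there.

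Windows of 4 genes are shown as examples of the range, with the 3 motifs on either strand in capitals. Alas2, the gateway to haem, has AGATAA on the opposite strand, read as TTATCT 86 bases before the start, and 3 CACCC boxes in a row on the opposite strand from 40 bases before it. Epor has AGATAA on the opposite strand 54 bases before the start, 2 CACCC boxes and 4 E-boxes. Hemgn has AGATAA 29 bases into the transcript and 2 E-boxes. Bpgm, which like Alas2 had a positive fold change, has none of the 3. Ppox and Uros, not shown, have none either, with negative log2 fold changes of -0.13 and -0.19. Different motifs did not overlap in the 4 windows shown. The windows lie at chrX:150547167-150547466 on the plus strand (Alas2), chr9:21963527-21963826 on the minus strand (Epor), chr4:46404134-46404433 on the minus strand (Hemgn) and chr6:34476106-34476405 on the plus strand (Bpgm).
Alas2: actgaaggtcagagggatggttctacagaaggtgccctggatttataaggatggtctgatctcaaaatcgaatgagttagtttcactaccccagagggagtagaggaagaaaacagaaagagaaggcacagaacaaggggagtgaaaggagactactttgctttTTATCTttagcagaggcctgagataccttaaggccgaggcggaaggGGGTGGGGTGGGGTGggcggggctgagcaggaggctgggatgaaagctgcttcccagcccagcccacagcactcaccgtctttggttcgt
Epor: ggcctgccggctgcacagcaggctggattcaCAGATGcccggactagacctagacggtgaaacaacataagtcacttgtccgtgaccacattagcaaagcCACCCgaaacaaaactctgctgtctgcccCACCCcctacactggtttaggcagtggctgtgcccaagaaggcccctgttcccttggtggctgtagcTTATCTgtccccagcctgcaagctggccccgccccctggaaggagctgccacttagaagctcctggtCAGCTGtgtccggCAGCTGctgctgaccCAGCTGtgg
Hemgn: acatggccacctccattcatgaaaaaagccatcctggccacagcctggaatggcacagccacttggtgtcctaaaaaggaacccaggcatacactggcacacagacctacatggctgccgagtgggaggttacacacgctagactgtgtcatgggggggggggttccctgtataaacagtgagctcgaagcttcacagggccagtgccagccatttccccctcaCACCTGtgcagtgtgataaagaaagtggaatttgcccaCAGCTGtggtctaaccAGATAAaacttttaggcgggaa
Bpgm: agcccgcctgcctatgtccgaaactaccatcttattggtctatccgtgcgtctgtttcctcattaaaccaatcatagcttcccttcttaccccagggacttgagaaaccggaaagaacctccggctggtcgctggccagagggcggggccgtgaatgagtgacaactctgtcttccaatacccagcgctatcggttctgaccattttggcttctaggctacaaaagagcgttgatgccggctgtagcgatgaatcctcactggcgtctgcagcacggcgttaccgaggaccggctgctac

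The rest of the erythroid pathway was taken from 5 further lists. Of 21 other genes of haem handling and mitochondrial iron, 14 were negative with a median of -0.08. In this list 1 was called, where 7.8% of all genes tested were called in either direction. That gene was Hmox1, haem oxygenase, which degrades haem and is strong in macrophages. It rose from 218, 228 and 214 CPM in non-radiated to 331, 326 and 281 CPM in radiated libraries, with a log2 fold change of 0.51 ± 0.07 SE (adjusted p 0.00306 by edgeR), and was called in each of 16 settings. The 9 macrophage markers had a median log2 fold change of 0.40 beside it, with 5 called higher and 1 lower. Of all 18757 genes tested 856 were called higher and 607 lower. The 9 markers together held 914 to 1108 CPM in non-radiated and 1205 to 1337 CPM in radiated libraries, none at 0. Their part in the rise of Hmox1 was not tested.

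Of 24 other red cell membrane genes 21 were negative, with a median of -0.11 and 2 called lower, where 3.24% of all genes tested were. Slc14a1, the urea transporter that carries the Kidd antigen, fell from 184, 189 and 166 CPM to 114, 142 and 124 CPM (log2 fold change -0.50, SE 0.09, adjusted p 0.00805 by edgeR), a call lost with library totals alone. Ackr1, the Duffy chemokine receptor, which venular endothelium also makes, fell by 0.31 on the log2 scale (adjusted p 0.0396 by edgeR) and was called in 9 of 16 settings. Leaving out any 1 non-radiated library ended its call, and so did leaving out radiated library 1 or radiated library 3. Of 30 other late erythroid genes 22 were negative with a median of -0.07, and 1 was called lower, beside the same 3.24% of all genes. Trim58, a ubiquitin ligase of terminal erythroid cells, was the 1 called (-0.24, edgeR adjusted p 0.0472), and it was called in 6 of 16 settings, in none that left out a library and not with the replicate block (adjusted p 0.0694).

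Of 29 genes of erythroid progenitors and factors 23 were negative, with a median of -0.07 and 3 called, all lower, where 3.24% of all genes tested were called lower. Kit, the stem cell factor receptor of early progenitors, fell by 0.40 on the log2 scale (adjusted p 0.00454 by edgeR), Jak2, the kinase that the erythropoietin receptor signals through, by 0.33 (0.00456) and Gata2, a factor of progenitors and mast cells, by 0.60 (0.00542). Kit was at 75.5, 82.6 and 71.5 CPM in non-radiated and 58.1, 57.1 and 58.1 CPM in radiated libraries, with no overlap. Groups without overlap and radiated lower made up 11.5% of all genes tested. Each of the 3 lost its call with library totals alone and kept it in the other 14 alternatives. With the replicate block 6 of the 29 were called lower, Gata1 (adjusted p 0.0289) among them, against 3.39% of all genes. Gata1, which drives both the erythroid and the megakaryocyte programme, had -0.29 (adjusted p 0.0902 by edgeR), Klf1, the erythroid factor, -0.05 (0.835) and Tfrc, the transferrin receptor, -0.23 (0.167). All 13 megakaryocyte markers fell, with a median of -1.45, from a summed 1810 to 1842 CPM to 680 to 775 CPM, none at 0. Their part in the values of Gata1, Kit, Gata2 and Jak2 was not tested.

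Of 10 globins, which are outside the present set, 7 passed the filter, 3 of them negative and 4 positive with a median of 0.09. The 3 negative ones, Hbb-y, Hbq1a and Hbq1b, had non-radiated means of only 0.287, 4.08 and 18.5 CPM. The 10 globins together held 16748 to 19158 CPM in non-radiated and 19965 to 22727 CPM in radiated libraries. Hba-a2 was the 1 called and rose by a log2 fold change of 0.35 (adjusted p 0.0499 by edgeR), a call lost in 9 of 15 alternatives, among them each fit that left out a library. Of all 18757 genes tested 856 were called higher. Hba-a1 and Hbb-bs each had 0.33 (adjusted p 0.218 and 0.182 by edgeR), and Hbb-bt had 0.09 (0.648). The difference between globins and haem genes was not tested.

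**Figure D5:**
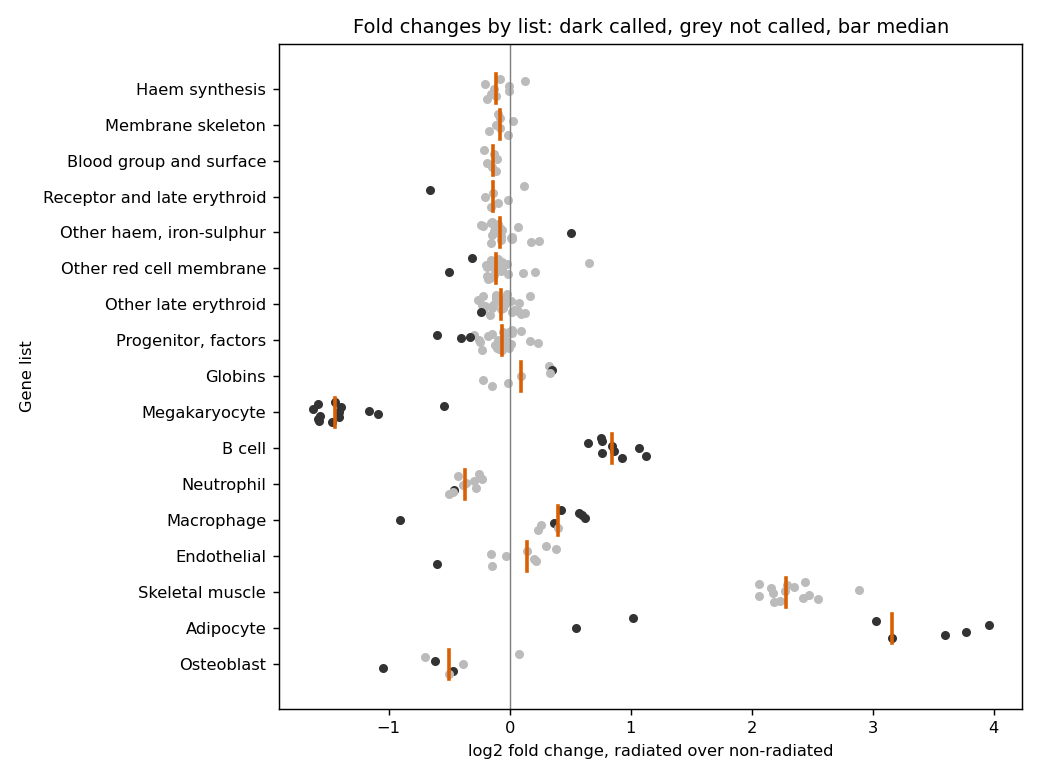
Log2 fold changes of the genes tested in each list (dark called by edgeR, grey not called) with an orange bar at the median. The 4 groups of members on top have medians from -0.14 to -0.08, while the megakaryocyte median is -1.45 and the B cell median 0.84.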

How the data were processed

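RNA-seq gene counts from 6 femur libraries were analysed, 3 radiated and 3 non-radiated, grouped by the labels. Per the labels' protocols, RNA came from homogenized bone stripped of muscle, was column-purified, and libraries were made with a stranded mRNA kit. Bcl2fastq, STAR 2.5.2b, Subread, featureCounts and the build mm10 are named in the submitters' processing notes, and parameters, annotation and strand setting are not given in the sources used here. The deposited table holds whole-number counts and RPKM per library, per the file headers. The RPKM deposited by the authors divides by a library constant 5.55 to 6.91 times the sum of the counts, of unstated meaning, and was not used for values; per-length levels are CPM divided by the table's gene length.

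The count test was that of edgeR 4.0.16 (R 4.3.3): filterByExpr (minimum count 10, minimum total 15), TMM, glmQLFit and glmQLFTest with group as the only term, and Benjamini-Hochberg adjustment over 18757 genes (called under 0.05). Intervals at 95% use the fit's degrees of freedom and are not adjusted. Alternatives were DESeq2 1.42.0, limma-voom (limma 3.58.1), 3 other scalings, 2 other filters, a replicate block, a muscle covariate and leaving out each library. The fit was checked on counts drawn with known changes, larger than those of the members and with libraries drawn independently. That check therefore does not bear on changes as small as theirs. Deviations from group means correlated at 0.166, 0.278 and 0.187 across genes for numbers 1, 2 and 3, so the numbers were taken to pair the libraries. The values for different numbers, -0.170 to -0.00824, follow in part from the centring of each group. Replicates differed by more than sampling noise (chi-square per degree of freedom 17.9 to 608).

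The members and lists were chosen with earlier results of these data known. Named in full were called members and Alas2, Fech, Slc4a1, Epor, Hemgn and Aqp1, and from each further list up to 3 called genes with the smallest p, with Klf1, Gata1 and Tfrc; other genes of that rule are not reported here. Rhag, Cpox, Bpgm, Mkrn1, Epb41, Hbb-bs, the other globins named and those in the other observations were given more values after these were seen.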

Additional observations from a re-analysis of the deposited data

How the results depend on the processing

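With library totals alone 146 of all genes were called lower, 0 members, 0 other membrane, 0 other late erythroid and 0 progenitor genes, and 0 globins higher. In that setting the medians were 0.0881 for the members, 0.11 for other haem genes, 0.0889 for other membrane genes, 0.14 for other late genes, 0.13 for progenitor genes and 0.29 for globins, beside 0.19 for all genes. Single genes changed sign with it: Alad 0.13, Uros 0.0205, Urod 0.0961, Cpox 0.00338, Ppox 0.0704, Fech 0.19, Slc25a37 0.19, Slc25a38 0.0523, Slc4a1 0.12, Sptb 0.0407, Ank1 0.12, Epb42 0.0881, Tmod1 0.19, Add2 0.12, Rhag 0.0134, Rhd 0.0703, Kel 0.0973, Xk 0.0827, Ermap 0.0684, Epor 0.0629, Hemgn 0.00633, Tspo2 0.0461, Trim10 0.10, Mkrn1 0.18 and Klf1 0.14. This setting leaves AY036118 in the scaling, and the cause was not tested. With the muscle covariate 489 of all genes were called higher and 370 lower, with 2 members, 1 other membrane and 2 other late genes lower and 0 globins higher, and medians were -0.22, -0.20, -0.15 and -0.18 for members, other membrane, other late and progenitor genes. DESeq2's Wald test called 1 other haem gene, 4 other membrane, 4 other late and 7 progenitor genes lower and 3 globins higher. Without the filter 1294 of all genes were called higher, with 2 other late and 6 progenitor genes lower. DESeq2 size factors gave 2 other late genes and 0 globins, limma-voom 0 other late genes, and a minimum of 1 CPM turned Slc25a37 to 0.000343. For the Wald test, the fit without the filter, DESeq2 size factors and limma-voom, the share of all genes called lower is not given here. The counts of list genes called lower in those fits therefore have no background beside them and are not read as results about the lists.

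The replicate block left the members' call as it was and called 6 progenitor genes lower, where 3 were called without it; Trim58 lost its call and Gata1 gained one, and no other named gene changed its call.

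Leaving out 1 library at a time gave 433 to 917 of all genes called higher and 328 to 602 lower. It gave 0 to 2 members, 0 to 1 other haem, 1 to 2 other membrane and 0 to 1 other late genes called lower, and 0 globins higher in every such fit. The log2 fold changes near 0 that changed sign ran from -0.19 to 0.0141 for Alad, -0.0600 to 0.0212 for Fech, -0.0337 to 0.0372 for Slc25a37, -0.0923 to 0.0303 for Tmod1, -0.0279 to 0.000549 for Mkrn1 and -0.20 to 0.0239 for Klf1. These fits hold fewer samples, which is part of their construction.

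The difference in the members' share of counts between group means was 0.149 percentage points of all counts, -0.0712 in TMM-scaled libraries and -0.0426 outside AY036118 and Gm26917. No detection limit was computed; the intervals give the precision of 3 libraries a group. Groups of 3 were too small to look for outlying libraries gene by gene.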

Other observations

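Several members have a close relative that other cells also make, and these were set beside them after their values had been seen. Alas1, the aminolevulinate synthase of all tissues, was at 95.3, 111 and 104 CPM in non-radiated and 93.8, 89.3 and 82.5 CPM in radiated libraries 1, 2 and 3. These groups did not overlap, with a log2 fold change of -0.22 (adjusted p 0.0967 by edgeR), while Alas2 had 0.13 (0.433). Slc25a28, the mitoferrin of non-erythroid cells, was at 13.0, 13.4 and 14.98 CPM in non-radiated and 18.02, 15.3 and 15.8 CPM in radiated libraries, again without overlap, with 0.24 (adjusted p 0.181 by edgeR), while Slc25a37 had 0.00. Over all genes tested, the groups did not overlap with radiated lower in 11.5%, and with radiated higher in 2698 of 18757. None of these relatives passed the test, and the differences between relatives were not tested.

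Car2, the carbonic anhydrase that red cells share with osteoclasts, was at 1161, 1253 and 1039 CPM in non-radiated and 966, 1052 and 952 CPM in radiated libraries, which overlapped. Its log2 fold change was -0.22 (adjusted p 0.182 by edgeR), beside -0.66 for Car1. Add1 and Add3, the adducins of most cells, had -0.10 and -0.15 beside -0.10 for Add2. Tmod3, the tropomodulin of most cells, had -0.18 (adjusted p 0.0854 by edgeR) beside -0.01 for Tmod1, with no overlap between 84.0 to 90.6 CPM in non-radiated and 76.3 to 80.9 CPM in radiated libraries. Of all genes tested 11.5% had such groups with radiated lower.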
